A study of Homo sapiens with 2 samples.

Results

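The peaks described here are those of acetylation of histone H3 at lysine 27 (H3K27ac) at the 4 genes of the TCF/LEF family, TCF7, LEF1, TCF7L1 and TCF7L2, in LOUCY. LOUCY is a human leukaemia line of T-cell origin (T-ALL), established long ago and commonly used as a model of the early T-cell precursor subtype. A peak was taken if it overlapped the hg19 gene body, as a fixed list of positions gives it to the nearest 1 kb, or the 50 kb on either side. This gave 26 of the 52203 deposited peaks, of which 4 were at TCF7, 11 at LEF1, 4 at TCF7L1 and 7 at TCF7L2. Peaks were chosen by position only, but the genes were chosen with earlier results of these data known. The series holds 1 library of H3K27ac chromatin immunoprecipitation from LOUCY cells and 1 library of input DNA from the same line, with 54357332 and 71932640 tags kept by the peak caller. Without replicates no difference was tested, and each value describes this pair of libraries of a single cell line. The fold of a peak is the authors' ratio of ChIP pileup to the local input level. The authors' -log10 q gives the confidence of the call.

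The TCF/LEF proteins bind DNA through an HMG box, recruit the coactivator beta-catenin when Wnt signalling is on, and act with Groucho/TLE corepressors when it is off. TCF7 and LEF1 are the members known from T-cell development, where TCF7 is needed early, from the first steps into the lineage, and LEF1 works partly in parallel with it. TCF7L1 is best known as a repressor in embryonic stem cells and skin, and TCF7L2 as the main effector of Wnt signals in the gut. H3K27ac marks active promoters and enhancers.

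The 5′ ends of these genes carried the mark very unequally. The peak over the 5′ end of LEF1 was among the widest of the genome. That of TCF7L2 was narrower, in the first 24.5% of all peaks by width. No peak was called at the 5′ end of TCF7 or of TCF7L1. The sequences just before these starts are shown because the results turn on the peaks called or not called near them. They are the 250 bases upstream of the start in RefSeq (GRCh38.p14), at chr5:134115363-134115612 (plus strand) and chr5:134123368-134123617 (plus strand) for the first and second listed start of TCF7, chr4:108166302-108166551 (minus strand) for LEF1, chr2:85133142-85133391 (plus strand) for TCF7L1 and chr10:112949997-112950246 (plus strand) for the first start of TCF7L2. Each is written 5′ to 3′, and capitals mark exact matches, on either strand, to the motifs described after them.

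TCF7 first start: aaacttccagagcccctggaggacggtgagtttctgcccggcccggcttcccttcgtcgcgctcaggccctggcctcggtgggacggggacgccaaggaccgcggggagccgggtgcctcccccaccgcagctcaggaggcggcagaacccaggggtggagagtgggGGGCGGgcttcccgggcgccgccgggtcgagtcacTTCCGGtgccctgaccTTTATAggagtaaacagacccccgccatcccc

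TCF7 second start: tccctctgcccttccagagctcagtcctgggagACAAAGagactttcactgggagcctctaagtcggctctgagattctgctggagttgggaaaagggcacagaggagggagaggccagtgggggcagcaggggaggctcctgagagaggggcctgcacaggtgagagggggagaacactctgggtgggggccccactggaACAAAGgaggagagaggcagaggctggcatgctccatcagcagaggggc

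LEF1 start: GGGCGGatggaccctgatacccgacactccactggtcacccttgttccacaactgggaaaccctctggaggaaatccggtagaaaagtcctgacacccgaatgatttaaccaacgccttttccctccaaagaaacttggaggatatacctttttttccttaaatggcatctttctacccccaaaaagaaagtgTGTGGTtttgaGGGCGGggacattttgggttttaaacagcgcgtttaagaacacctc

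TCF7L1 start: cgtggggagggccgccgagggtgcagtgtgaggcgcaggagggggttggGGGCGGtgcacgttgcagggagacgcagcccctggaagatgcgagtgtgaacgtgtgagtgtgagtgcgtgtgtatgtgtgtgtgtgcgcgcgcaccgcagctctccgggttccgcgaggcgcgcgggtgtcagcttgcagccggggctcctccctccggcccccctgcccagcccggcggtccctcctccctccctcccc

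TCF7L2 first start: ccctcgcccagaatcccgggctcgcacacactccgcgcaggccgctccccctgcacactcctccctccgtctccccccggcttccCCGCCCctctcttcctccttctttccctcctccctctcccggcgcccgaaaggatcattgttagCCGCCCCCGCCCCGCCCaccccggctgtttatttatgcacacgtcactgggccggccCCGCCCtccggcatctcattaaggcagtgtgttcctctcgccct

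The motifs were searched on both strands. They were the TCF/LEF core CTTTGA, the core CTTTGT bound by HMG box proteins, the RUNX core TGTGGT, the GATA factor motif GATAAG, the ETS factor motif CCGGAA, the bZIP motif TGACTCA of the AP-1 factors, the TATA box as TATAAA, the box of the NF-Y factor as CCAAT, the GC box as GGGCGG and the E-box CAGCTG, which reads the same on both strands. The shares given are those among all 35116 promoter windows of 300 bases in the table, from 250 bases before the start to 50 after it. The first TCF7 window held a TATAAA match 32 bases before the start on the minus strand, a motif present in 11.5% of windows, together with an ETS match (17.2% of windows) and a GC box (45.0%). The second TCF7 window held CTTTGT at 2 places, 217 and 49 bases before the start, both on the minus strand, and 16.1% of windows held that motif. The LEF1 window held a RUNX match 57 bases before the start (13.1% of windows), GC boxes at 2 places and, past the start and so not printed, a CCAAT match (34.6%). The first TCF7L2 window held 5 GC box matches, some of which overlap each other, and the TCF7L1 window held 1. None of the 7 windows listed for the 4 genes held CTTTGA, which 12.9% of all windows held. These are matches of letters and were not related to binding of any factor.

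In the first listed windows, GC content was higher at the genes without a peak at the hg19 5′ end than at those with one. With only 4 genes, no relation of base composition to peaks was tested. The GC content was 69.7% at the first TCF7 start and 74.3% at TCF7L1, genes with no peak at the hg19 5′ end, against 65.7% at the first TCF7L2 start and 47.0% at LEF1, which both had one there. The listed starts were not placed in hg19. The second TCF7 window had 3 CpG dinucleotides, a ratio of observed to expected CpG of 0.12, while the first had 25 and a ratio of 0.69.

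LEF1 had the widest and, by summed fold times width, the largest amount of H3K27ac of the 4 genes. The peak over its start (position 109080404 to 109096286 of chromosome 4, hg19, band 4q25) was 15883 bp wide with a fold of 10.1 and a -log10 q of 70.1. It ran from 6.29 kb upstream of the 5′ end of the gene to 9.60 kb inside it. It ranked 848 of all peaks by width and 2578 by fold, that is in the first 1.62% and 4.94%. On chromosome 4 it ranked 59 of 2374 peaks by fold. The RefSeq gene order places the antisense transcript LEF1-AS1 across this end, so part of the peak may belong to that start, and these cannot be told apart from peak positions.

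A second wide peak lay past the other end of LEF1. It spanned 12352 bp (108948881 to 108961232), began 7.77 kb beyond the 3′ end and had a fold of 7.99, with a -log10 q of 47.8. The next gene on that side is HADH, a mitochondrial enzyme of fatty acid oxidation, and the peak was not assigned to either gene. These were the only peaks of 10000 bp or more among the 26, against 4.37% of all peaks. The other 9 peaks at LEF1 were weak, with folds from 2.17 to 3.20 and -log10 q values of at most 5.95. Of these, 4 lay inside the gene, the strongest at 109028304 to 109030713 (fold 3.20), about the middle of the gene. The nearest peaks outside the gene were at 108966931 to 108967325 (fold 2.24), 1.68 kb past the 3′ end, and at 109103885 to 109105749 (fold 2.17), 13.9 kb upstream of the 5′ end. The 2 longest stretches of LEF1 without a peak, 38.4 and 37.9 kb, took up 31.8% and 31.3% of the gene.

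At TCF7 no peak reached the 5′ end, and the gene held weak peaks throughout its middle. The nearest peak to the start lay 7.57 kb inside the gene (133457569 to 133461646 of chromosome 5, hg19, band 5q31.1), with a width of 4078 bp and a fold of 3.72. The next were at 133467217 to 133469861 (fold 2.91) and at 133472556 to 133477287 (fold 3.42, the widest of the locus at 4732 bp). Their -log10 q values were 5.83, 3.11 and 4.84, so none of the 3 would remain at a -log10 q of at least 10, while 36.8% of all peaks would. In fold they ranked 21074, 28156 and 23090, near the middle of the list, whose median fold was 3.08. By width they stood higher in the list, at ranks 9911, 17082 and 7958.

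Upstream of TCF7 the stretch without a peak was 66.7 kb long (133390823 to 133457568), and it took in the 5′ end and the first 22.3% of the gene. The peak at its far end (133388821 to 133390822, fold 6.54) lay 59.2 kb from the gene and so outside the window. Of the 52180 gaps between neighbouring peaks, 15.4% were at least as long. RefSeq lists 2 starts of TCF7 in its promoter table, the second 8005 bases downstream of the first in GRCh38. In hg19 the first peak of the gene covered the stretch from 7.57 to 11.6 kb past the 5′ end. These distances come from different builds and the hg19 end is known only to 1 kb, so whether the second start lies under the peak was not tested. The remaining peak of the locus lay 26.3 kb past the 3′ end (133510277 to 133513599), with a fold of 7.29 and a -log10 q of 26.0. The next gene there is SKP1, a subunit of SCF ubiquitin ligases, and this was the only peak at TCF7 with a fold of at least 6, which 23.2% of all peaks reached.

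TCF7L2 was marked at its start and more strongly inside. The peak at its 5′ end (114708858 to 114712226 of chromosome 10, hg19, band 10q25.2) was 3369 bp wide, with a fold of 7.45, a -log10 q of 24.8 and rank 7911 by fold. The strongest peak of the gene began 75.5 kb further in (114785546 to 114790796), with a width of 5251 bp, a fold of 8.38, a -log10 q of 42.1 and rank 5564. Another, at 114809277 to 114813224, had a fold of 4.92 and a -log10 q of 15.6. The other 4 had folds from 2.07 to 3.01 and widths from 950 to 1718 bp.

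All 7 peaks at TCF7L2 touched the gene, and no peak was called in its flanks. The gap before its first peak was 487 kb long, matched or exceeded by 1.74% of all gaps, and the gap after its last peak was 285 kb, matched or exceeded by 3.09%. The nearest peaks beyond them, both outside the window, had folds of 2.52 upstream (114220310 to 114221655) and 7.23 downstream (115139923 to 115145535). The last peak ended 145 kb past the start, so the final 73.2 kb of the gene, 33.6% of it, held none. RefSeq lists 2 further starts of TCF7L2, 176386 and 179024 bases downstream of the first in GRCh38, at distances where no peak was called in hg19.

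TCF7L1 had no called peak over most of its length. The 242 kb from 85285198 to 85527109 of chromosome 2 (hg19, band 2p11.2) had no peak, and this stretch took in the 5′ end and 93.8% of the gene. Of all gaps, 3.73% were at least as long. The peak at its upstream end (85283907 to 85285197, fold 3.09) lay 75.8 kb from the gene, outside the window. The gene itself held 2 narrow peaks near its 3′ end, of 442 bp with a fold of 3.26 (85527110 to 85527551) and of 1093 bp with a fold of 5.91 (85533869 to 85534961). The strongest peak of all 4 loci lay 14.6 kb past that end (85552554 to 85556598), with a fold of 12.4, a -log10 q of 79.9 and rank 760. Another, at 85580718 to 85582664, had a fold of 5.97. The genes next in order on that side are TGOLN2, a protein of the trans-Golgi network, RETSAT, a retinol saturase, and ELMOD3, and none of these peaks was assigned to a gene.

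**Figure D1:**
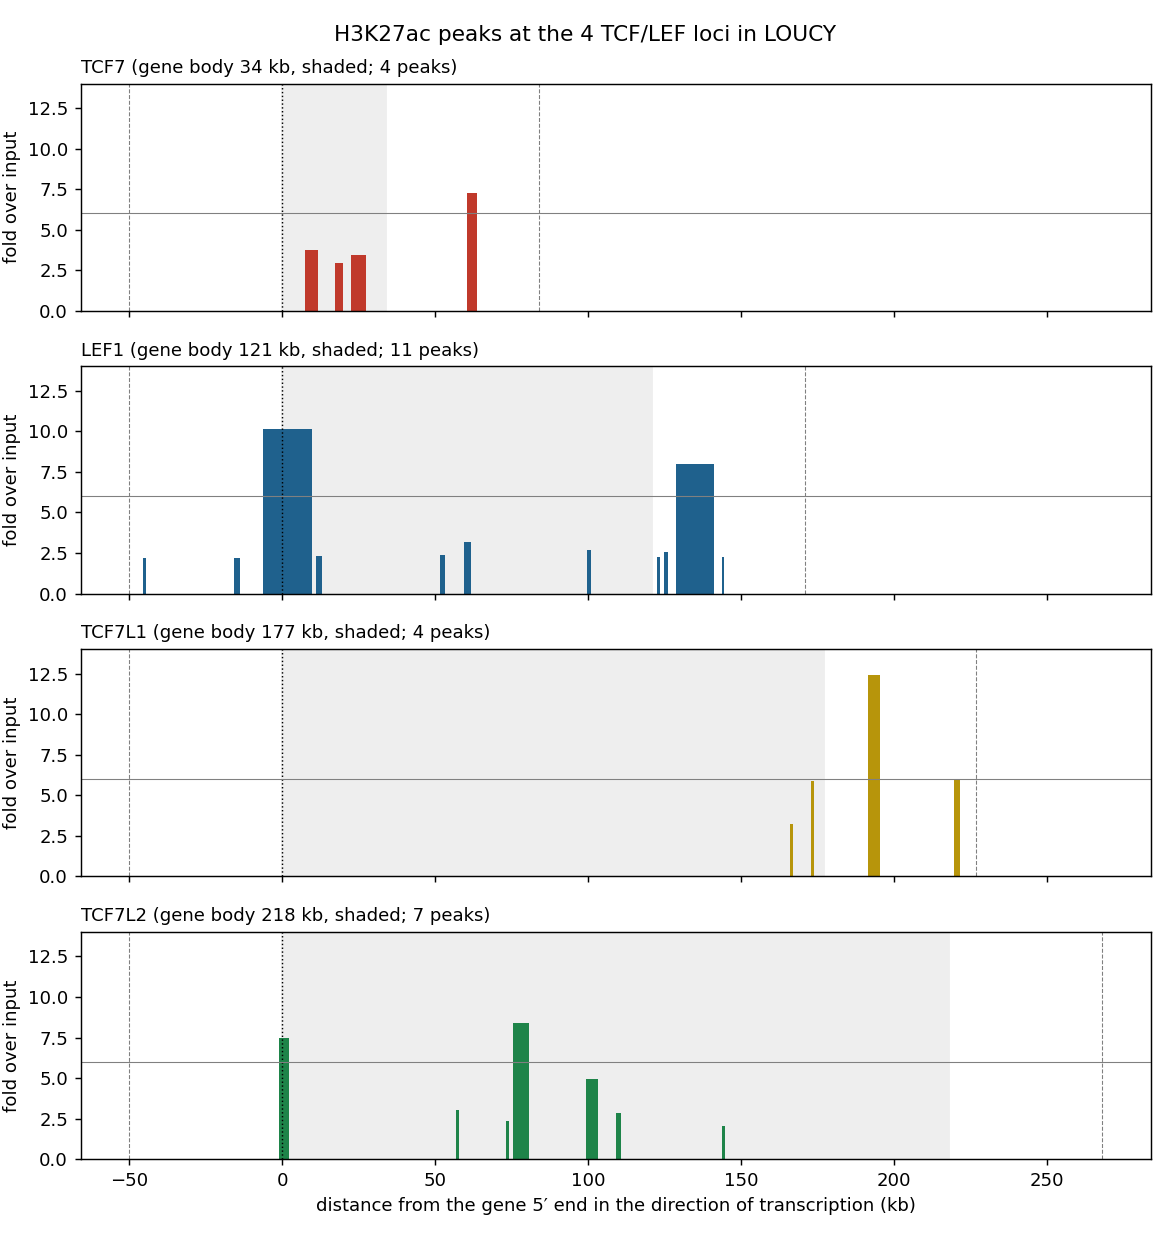
Fold over input of each H3K27ac peak (vertical axis) against distance from the 5′ end of the gene in kb, in the direction of transcription, for TCF7, LEF1, TCF7L1 and TCF7L2. Bars span the peaks (those under 0.8 kb are drawn at 0.8 kb), shading marks the gene body, the dotted line the 5′ end, dashed lines the limits of 50 kb on either side, and the horizontal line a fold of 6. LEF1 (fold 10.1) and TCF7L2 (fold 7.45) have a peak at the 5′ end, and TCF7 and TCF7L1 have none.

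Counted over the 4 loci, the peaks were much like those of the genome in strength. A fold of at least 6 was reached by 6 of the 26 peaks, 23.1%, against 23.2% of all peaks, and a fold below 3 was found in 12, or 46.2%, against 48.2%. A share so near the background is no result about the family. The 6 strong peaks were the start and downstream peaks of LEF1, the start and inner peaks of TCF7L2, and the peaks past the 3′ ends of TCF7 and TCF7L1. Within the gene bodies or at the 5′ ends, the highest fold was 10.1 at LEF1, 8.38 at TCF7L2, 5.91 at TCF7L1 and 3.72 at TCF7. With 1 library, the spread behind neighbouring values in this order is unknown.

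**Figure D2:**
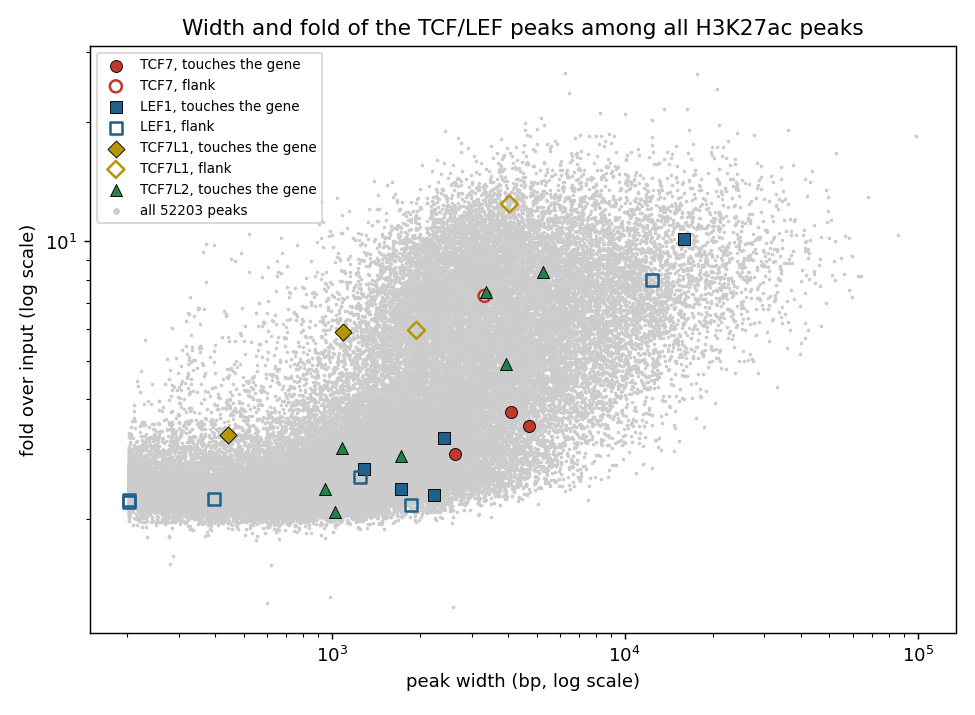
Width in bp (horizontal axis, log scale) against fold over input (vertical axis, log scale) of all 52203 H3K27ac peaks (grey) and the 26 peaks at the TCF/LEF loci. Filled symbols touch the gene body and open ones lie in its flanks. The LEF1 start peak (15883 bp, fold 10.1) lies far to the right, and the 3 TCF7 gene peaks lie at folds from 2.91 to 3.72.

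By the share of sequence under all called peaks, LEF1 stood first and TCF7 second, but the place of TCF7 rested on its weak peaks. Peaks covered 18.0% of the LEF1 window of 221 kb, and 7.09% of all genome tiles of that length were covered at least as much. They covered 11.0% of the TCF7 window of 134 kb, against 14.2% of tiles at least as covered. For TCF7L2 the values were 5.46% of 318 kb and 29.7% of tiles, and for TCF7L1 2.72% of 277 kb and 43.3% of tiles. Limited to a -log10 q of at least 10, the shares were 12.8% at LEF1, 3.95% at TCF7L2, 2.56% at TCF7L1 and 2.48% at TCF7, which was then last. Tiles include gene deserts and assembly gaps. Summed fold times width was 289 fold-kb at LEF1, 101 at TCF7L2, 69.8 at TCF7L1 and 63.3 at TCF7, so TCF7 was last by this sum. That place held for flanks of 50 kb only, since without flanks TCF7 had 39.1 fold-kb against 7.90 at TCF7L1, and with flanks of 100 kb it had 109 against 101 at TCF7L2.

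The order changed again when only the gene bodies were counted. Peaks covered 33.7% of TCF7, 14.3% of LEF1, 7.43% of TCF7L2 and 0.867% of TCF7L1. In a small hg19 set of 38 other protein-coding genes the median was 8.92%, and 5 of them were covered more than TCF7 and 15 more than LEF1. A peak lay within 1 kb of the 5′ end in 2 of the 4 TCF/LEF genes, against 60.5% of that set (23 of 38). The LEF1 start peak was wider than all 23 start peaks of the set, the widest of which was 15252 bp, and 3 of the 23 had a higher fold. The TCF7L2 start peak was exceeded by 8 in fold and by 12 in width. The basis on which that set was chosen is not stated, and TCF7 is shorter (34 kb) than LEF1 (121 kb), TCF7L1 (177 kb) and TCF7L2 (218 kb), which bears on a share of the gene body.

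**Figure D3:**
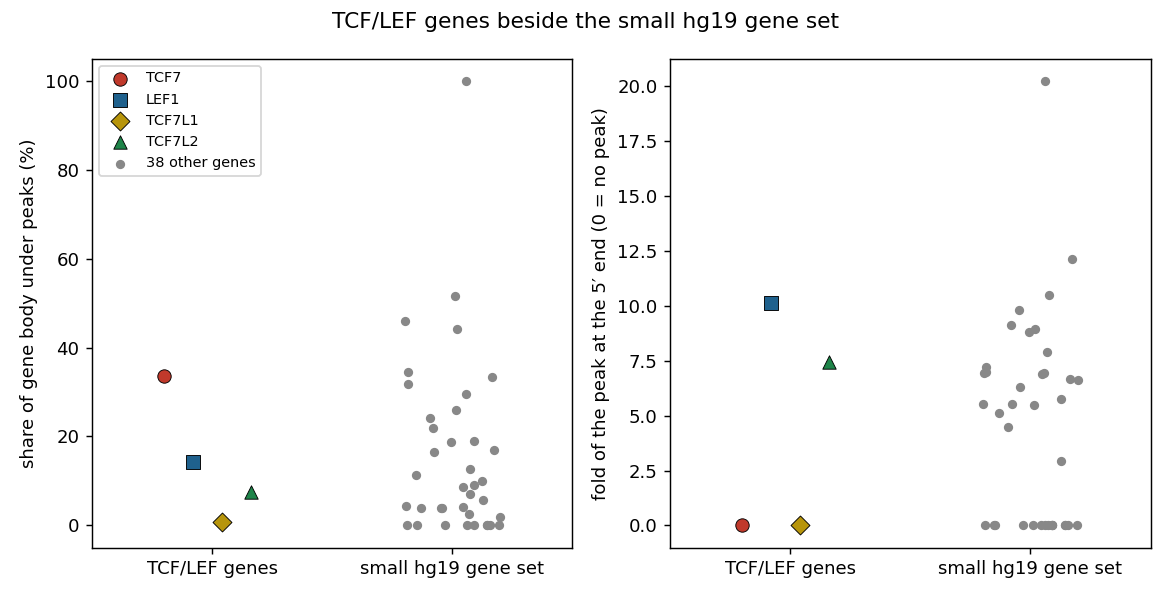
Share of the gene body under H3K27ac peaks in percent (left) and fold of the peak within 1 kb of the 5′ end (right, 0 where there was none) for the 4 TCF/LEF genes and the 38 genes of the small hg19 set, 1 point per gene, spread sideways at random. TCF7 is high on the left (33.7%) and at 0 on the right.

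When peaks were joined within 12500 bp, the region over the LEF1 start was the highest-ranking at any of the 4 genes. It spanned 28.9 kb with 3 peaks and ranked 1058 of 25510 regions by summed fold times width, the first 4.15%. The region past the LEF1 3′ end joined 4 peaks over 21.3 kb and ranked 2017, or 7.91%. The 2 were kept apart by 3 stretches of 21.8 to 38.4 kb without a peak. At TCF7L2 the highest region was that of the inner peak, rank 4972, ahead of that of the start, rank 8589. At TCF7 the 3 gene peaks made 1 region of 19.7 kb, rank 5896. The highest region that touched TCF7L1 ranked 15289, against 4542 for the strong peak past its 3′ end.

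Fold depends on the input as well as on the ChIP, so the input level behind each peak was worked out from its fold and p-value. This level is approximate, since the caller combines positions within a broad peak. At the 3 TCF7 gene peaks it was 4.48, 4.41 and 4.57, close to the lowest level of the list, 4.11, and below the median of all peaks, 6.34. That lowest level matches the caller's genome-wide background, a floor below which the level used for a fold cannot fall. Single peaks at other loci were as low, with 4.32 at a TCF7L2 gene peak (114783224 to 114784173) and 4.55 at a LEF1 flank peak (108946004 to 108946207). Within 5 Mb of TCF7 the median level was 5.02 over 210 peaks, compared with 7.58 over 155 peaks around LEF1, 6.15 over 163 around TCF7L1 and 6.79 over 247 around TCF7L2. The LEF1 start and downstream peaks had levels of 9.74 and 9.83. For a given ChIP pileup a lower level gives a higher fold, down to the floor. Where the input itself is below the floor, the fold is instead lower than the ratio to that input. How far either acted on the TCF7 folds was not tested. The ChIP pileups, also implied, were 19.4, 14.8 and 18.0 tags at the TCF7 gene peaks. They were 108 at the LEF1 start, 71.9 at the inner TCF7L2 peak and 44.1 at the TCF7L2 start. The highest pileups of the 4 genes stood in the same order as the highest folds, both within the gene bodies and over the whole windows. Over the windows, the peak past TCF7L1 and the LEF1 start peak had nearly equal pileups of 108 each. These pileups were worked out from the same folds and p-values, so the shared order is no separate check of the folds. By pileup the LEF1 start peak ranked 1160 of all peaks, and the strongest TCF7 gene peak ranked 29690. The pileups were not adjusted for the differing input levels of the loci. The part of copy number in these levels and pileups was not tested.

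**Figure D4:**
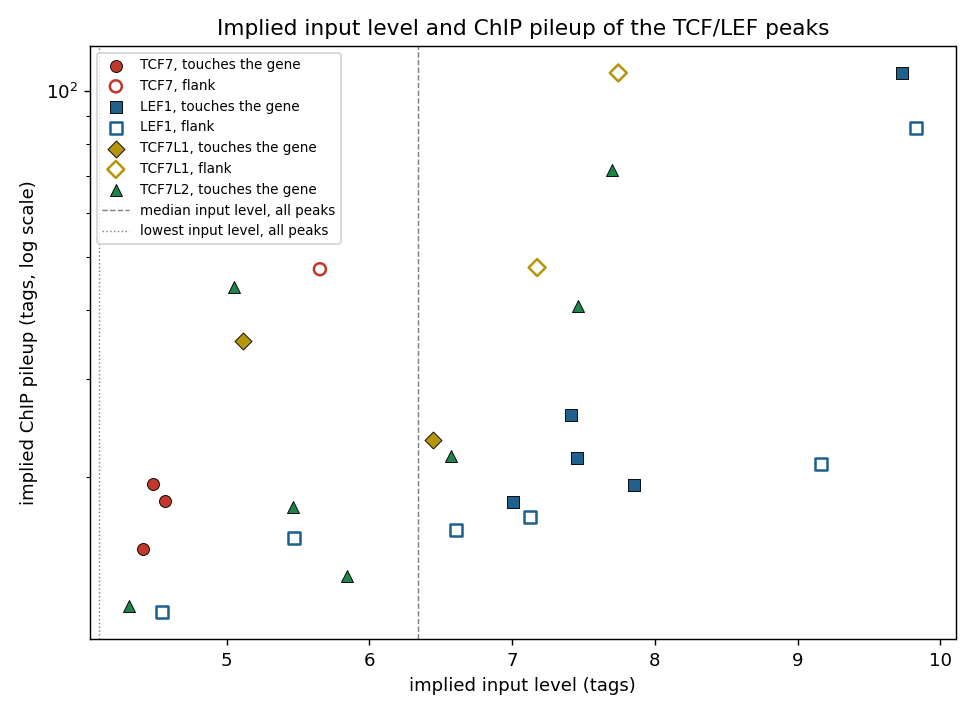
Implied input level (horizontal axis, tags) against implied ChIP pileup (vertical axis, tags, log scale) of the 26 peaks at the TCF/LEF loci. Filled symbols touch the gene body, open ones lie in its flanks, and the dashed and dotted lines mark the median (6.34) and the lowest (4.11) input level of all peaks. The 3 TCF7 gene peaks lie at levels from 4.41 to 4.57, and the LEF1 start peak lies at 9.74 with a pileup of 108.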

How the data were processed

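Per the file headers, the authors ran MACS2 2.1.0.20140616 with its broad option and used the input DNA as control, with 1 tag kept per position and a q cutoff of 0.05. Bowtie2 and hg19 are named in the submitters' processing notes; how reads were aligned is not stated there. The deposited fold is a ratio of ChIP pileup to local input, and each peak also has a deposited -log10 q-value and -log10 p-value from the caller. The pileup column, below 0 for each of the 52203 peaks, was left aside. A region without a peak was below the caller's threshold at this depth and is not shown to lack the mark.

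Gene bodies were fixed in hg19 to 1 kb, with strands from RefSeq. Neighbouring genes come from the RefSeq gene order in GRCh38.p14, with no coordinates carried over. Peaks within 1 kb of a 5′ end counted as start peaks. The peaks named were each gene's start, strongest, widest and nearest outside peaks and those of fold 6 or more; any other peak named was picked with its values in view. The members and lists were chosen with earlier results of these data known. Tiles ran from position 1 of the 22 autosomes and X in hg19. The small hg19 gene set is a UCSC sample that ships with the GenomicFeatures package of R. The implied input level is the level at which the fold, with 1 added to pileup and input, has the stated Poisson p. Simulated data were made with the same formula, so they checked the arithmetic only, not the combining of positions in broad peaks. Peaks with a level above 20 were left out of medians around genes. With no full hg19 annotation used, 20 fixed pathway genes were not placed, and of 16 cell type markers only S100A9, a myeloid gene, was in the small set, with no start peak; the T-cell label was thus not checked. The planned protein comparison was not run. No p-value was computed. Calculations ran in Python 3.11.15 (scipy 1.17.1, pandas 2.3.3, numpy 2.4.6), and figures were drawn with matplotlib 3.10.9.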

Additional observations from a re-analysis of the deposited data

How the results depend on the processing

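A value was taken as kept if it moved by no more than 1.5 times, and 87 of 115 alternative values were kept. This total mixes settings that left the same peaks in place with settings that changed them. All 16 values were kept when at least 50% of a peak had to lie inside the window, whereas without flanks 9 moved and 7 were kept. With peaks limited to a -log10 q of 10 or more, and equally to a fold of at least 4, the peaks per locus were 1 at TCF7, 2 at LEF1 and 3 at TCF7L2, and at TCF7 the covered share was 2.48% and the sum 24.2 fold-kb, all from the peak past its 3′ end. TCF7 then had the lowest share, under 12.8% at LEF1, 3.95% at TCF7L2 and 2.56% at TCF7L1. A fold of at least 3, chosen after seeing the data, left 3 peaks at LEF1 and 4 at TCF7L2. Without flanks, LEF1 had 5 peaks and 181 fold-kb, TCF7L1 had 2 peaks, a covered share of 0.867%, a highest fold of 5.91 and 7.90 fold-kb, and TCF7 had a covered share of 33.7%, a highest fold of 3.72 and 39.1 fold-kb. With flanks of 100 kb, TCF7 had 109 fold-kb, and TCF7L1 179 fold-kb and a covered share of 4.78%, above the 4.15% of TCF7L2. Counts and sums change here with the peaks that a choice removes or adds, and shares also with the length of the window, which is 34 kb without flanks and 134 kb with them at TCF7. By the sum TCF7 was last with flanks of 50 kb but not without flanks or with 100 kb. The TCF7 region ranked 9959 with joining within 5 kb, a limit that split it at the 5.57 kb gap after its first peak. By summed width, which leaves out the fold, the region joined within 12500 bp ranked 2940. At a -log10 q of at least 10 no region touched TCF7. By highest fold over the windows the order was TCF7L1, LEF1, TCF7L2 and TCF7; over gene bodies and start peaks by implied pileup, an alternative chosen after seeing the data, LEF1 was 1 and TCF7L1 was 3. The start peaks of LEF1 and TCF7L2, and the absence of one at the 5′ ends of TCF7 and TCF7L1, were the same with margins of 0, 2 and 5 kb. For TCF7 and TCF7L1 these margins could give no other outcome, since the nearest peaks lay 7.57 and 166 kb from the 5′ end. No paired analysis was possible because each group holds a single library. Peaks of low -log10 q depend on the threshold, and the effect of depth was not tested.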
